A study of Rattus norvegicus with 170 samples.

Results

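The genes described here encode the mitotic spindle and the kinetochore, the machinery that separates the copied chromosomes when a cell divides. A list of 40 gene symbols was used, and a gene of the deposited table belonged to the set when the symbol of any of its rows was on the list. Of the 40 listed genes, 39 were found among the 24113 genes of the table, with 46 rows in all, and rows were added up for the 5 members that had more than 1. The expression of *Spc24* was not analysed here. The members were followed gene by gene and cell by cell in islet cells grouped by their RNA for *Insulin 1* (*Ins1*) and for *Cyclin B1* (*Ccnb1*), a cyclin that accumulates before mitosis. Neither gene belongs to the set.

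Islets of wild type male Sprague Dawley rats aged 8 weeks were cultured for 48 h at 5.5 mM glucose with 3 µM of the aminopyrazine GNF4877 or with the vehicle, 0.1% DMSO. The islets were then dispersed, single cells were captured on Fluidigm C1 chips, and polyadenylated RNA was copied and sequenced as single reads of 50 bp, for 86 cells from DMSO-treated and 84 cells from GNF4877-treated islets. No animal, culture or chip is named for any cell, so each treatment stands as 1 sample whose cells do not replicate it, and treatment and chip cannot be told apart. Values are reads per 1000000 mapped reads of the cell (RPM), not divided by transcript length, so levels are compared between cells and never between genes. A gene counted as read in a cell when it had at least 1 read, and cells held 241604 to 2499138 mapped reads.

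Cells with 1000 RPM or more of *Ins1* are called Ins1-high, and there were 78 of them in DMSO and 59 in GNF4877. In DMSO, 77 Ins1-high cells held no *Ccnb1* read and 1, cell 46, held 10 RPM or more. In GNF4877, 40 held none, 8 held some but less than 10 RPM, and 11 held 10 RPM or more. Just inside the 10 RPM threshold was cell 17 at 19.1 RPM and just outside it cell 95 at 6.85 RPM. Summed over 7 β-cell markers, the median was 51074 RPM in DMSO cells without *Ccnb1*, 29685 RPM in GNF4877 cells without it and 54397 RPM in the 11 cells. These sums include *Ins1*, their most abundant gene, by which the cells were chosen, so they are high by that choice. *Mafa*, another of those markers, had no read in any Ins1-high GNF4877 cell. Cells are numbered within their treatment as in the labels.

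As background, a bipolar spindle is built by kinesin motors and microtubule-binding proteins under the control of Aurora, Polo and NIMA family kinases. Kinetochores assemble on centromeric chromatin and hold the microtubule ends, and the spindle assembly checkpoint delays anaphase until every kinetochore is attached. Transcripts of many of these genes build up in G2 and M phase and fall in resting cells, and adult islet β-cells divide rarely.

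Most Ins1-high cells held reads of only a few members, whichever the treatment, while 9 of the 11 GNF4877 cells with 10 RPM or more of *Ccnb1* held reads of 20 or more. DMSO cells without *Ccnb1* read 2 to 14 of the 39 members, with a median of 7, and GNF4877 cells without *Ccnb1* read 3 to 15, with a median of 8. The 11 GNF4877 cells with 10 RPM or more read 6 to 37 members, with a median of 26. Cells of GNF4877 with some *Ccnb1* but less than 10 RPM read 6 to 30 members, with a median of 10. Summed over the members, the median was 341 RPM in DMSO cells and 319 RPM in GNF4877 cells without *Ccnb1*, 736 RPM in the 8 cells under 10 RPM and 4673 RPM in the 11 cells. Of mean sums of 379.5 RPM in DMSO and 405.6 RPM in GNF4877 cells without *Ccnb1*, *Ckap5* held 159.5 and 115.8 RPM. *Bub3* held 85.5 and 61.5 RPM of them, and *Zwilch* 78.6 and 72.2 RPM.

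The highest count in any of the 117 Ins1-high cells without *Ccnb1* was 15 members, a limit read from these cells, so that none of them could lie above it. Of the 11 GNF4877 cells, 10 lay above it. So did 2 of the 8 cells under 10 RPM, cells 95 and 37, and the DMSO cell 46. Depth differed less than the counts did. Median mapped reads were 1240658 in DMSO and 1381746 in GNF4877 cells without *Ccnb1*, and 1583250 in the 11 cells, and the medians of all genes read were 8932, 6913 and 7527. After each cell was thinned at random to 100000 reads, the median number of members read was 4 in both groups without *Ccnb1* (highest 12 in DMSO and 10 in GNF4877) and 19 in the 11 cells (4 to 34).

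**Figure D1:**
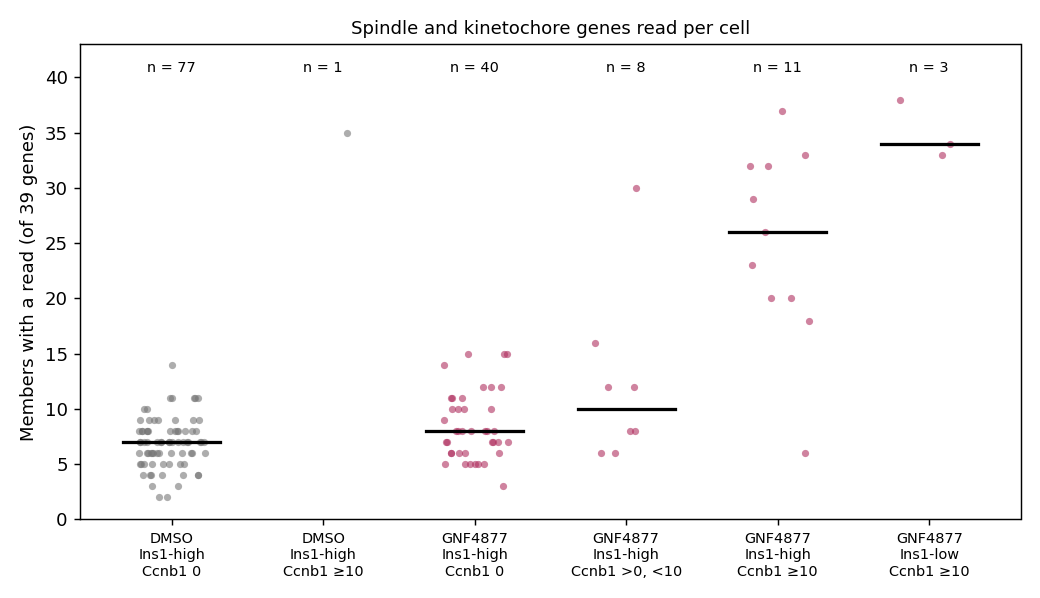
Number of the 39 spindle and kinetochore genes with a read (vertical axis) in each cell (points) of 6 groups by treatment, *Ins1* and *Ccnb1* in RPM (horizontal axis), with the median as a bar. Cells without *Ccnb1* reach 15 members at most, while 10 of the 11 Ins1-high GNF4877 cells with 10 RPM or more lie above 15.

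The 11 cells were not alike. Cell 40 held the most members, 37 of 39, at 12365 RPM summed over them, followed by cell 30 with 33 members (7578 RPM) and cells 16 and 36 with 32 each (11491 and 5229 RPM). Cell 17 held 29 members and 5900.2 RPM of them at only 19.1 RPM of *Ccnb1*, whereas the 3 cells with the most *Ccnb1*, cells 16, 30 and 40, were also the 3 of the 11 with the most member RNA. Cells 19, 31, 25, 96 and 63 held 26, 23, 20, 20 and 18 members. Cell 78 stood apart. It held 392 RPM of *Ccnb1*, the median of the 11 cells, yet it read 6 members, *Zwilch* at 204 RPM, *Kif15* at 34.8 RPM, *Hmmr* at 27.2 RPM and *Bub1*, *Kntc1* and *Ckap5* with 1 read each. It also had the most *Ins1* of the 11 cells (184281 RPM), the fewest genes read (4294) and 661387 mapped reads, and the part of these in its low count was not tested.

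**Figure D2:**
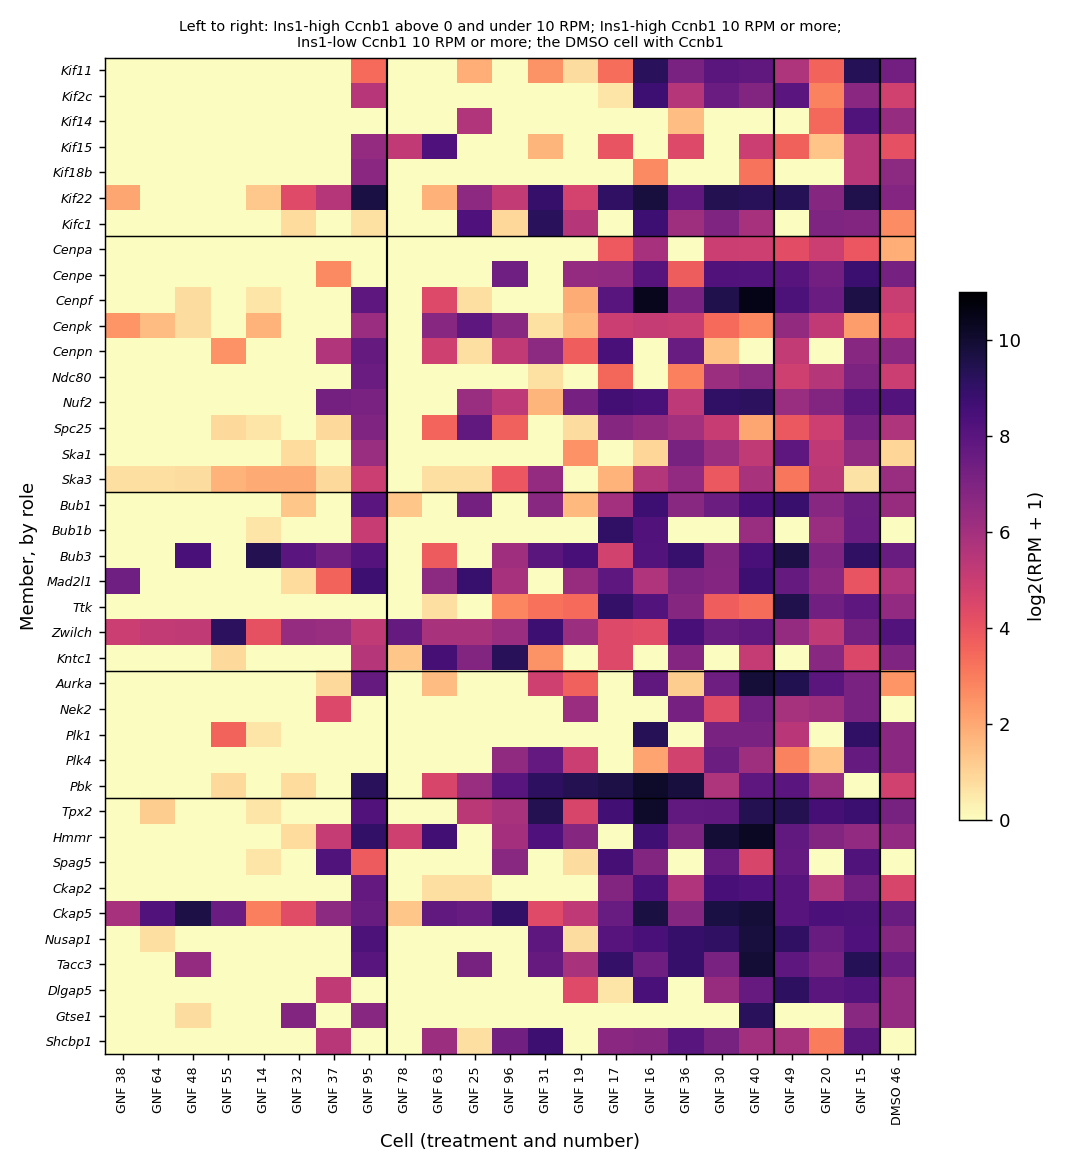
Level of each member, as log2(RPM + 1) by colour, in rows ordered by role, for the 8 and 11 Ins1-high GNF4877 cells with *Ccnb1*, the 3 Ins1-low GNF4877 cells with 10 RPM or more and the DMSO cell 46 (columns). Cell 95 resembles the cells to its right more than the 7 other cells under 10 RPM, and cell 78 is nearly empty.

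To ask which members set apart the cells with *Ccnb1*, the 11 GNF4877 cells were compared with the 40 GNF4877 cells without *Ccnb1*, both from the same treatment. Members from every role were higher, and none was 2-fold or more lower. The ratio used was log2((mean RPM + 1)/(mean RPM + 1)), and a difference of 2-fold or more was counted. By this measure 38 of 39 members were higher, against 15.1% of the 15727 genes with a read in either group, and 0 were lower, against 20.9% of those genes. The members were chosen with earlier results of these data known, and the part of that choice in this count was not tested. The median log2 ratio was 4.67 for the members and -0.08 for all genes. It was 6.14 for the members without the pseudocount and with the 3 members that had no read in the lower group set against 3 reads over that group. The exception was *Cenpk*, at 0.98. By role the medians were 5.73 for motors, 3.64 for centromere and kinetochore genes, 4.67 for checkpoint genes, 5.21 for kinases and 6.07 for spindle assembly genes.

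Single cells carried part of this difference. For 12 of the 39 members, 1 of the 11 cells held 50% or more of the group's RPM, which was not counted over all genes. When the highest cell of each member was left out of the 11, 33 members were still 2-fold or more higher, against 4.72% of all genes treated alike, and the median log2 ratio was 3.65 (all genes -0.61). Both groups also differed in other transcripts. The median of *Ins1* was 36796 RPM in the 11 cells and 18348 RPM in the 40, and that of the summed ductal markers (5 genes, *Krt7* highest) was 97.9 and 168 RPM. Summed markers of α-cells (5 genes, *Gcg* highest) had medians of 70.0 and 75.01 RPM, but cell 31, which held the most *Kifc1* and *Shcbp1* of the 11, had 37011 RPM of *Gcg*, and without cells of a second hormone the members' median ratio was 4.77. Medians were, for δ-cell markers, 0 and 1.70 RPM, for *Ppy* 0.621 and 3.11 RPM and for immune markers 0.656 and 0.605 RPM. Acinar, endothelial and mesenchymal markers had a median of 0 in both. The part of these differences in the members' ratios was not tested.

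The share of cells in which a member was read gave a similar order. The median share over the members was 3.90% in DMSO and 12.5% in GNF4877 cells without *Ccnb1*, and 72.7% in the 11 cells. At 100000 reads per cell the share in GNF4877 cells without *Ccnb1* was lower, with its value given under the processing. At that depth the median number of members read was 4 in both groups without *Ccnb1*. For 22 of 39 members the exact Clopper-Pearson 95% intervals of the 11 and the 40 cells, which like every interval here cover counting error only, did not overlap, with the 11 cells higher, against 0.973% of all genes, and for 0 the 11 cells were lower, against 0.0254%. At 100000 reads per cell this held for 21 of 38 members (1.01% of all genes) and for 0 in the other direction (0.0626%). In level, 36 of 39 members had at least 1 of the 11 cells above every one of the 117 cells without *Ccnb1*, against 13.3% of all genes with a read in these cells. For 5 members, *Kif22*, *Bub1*, *Pbk*, *Tacc3* and *Shcbp1*, 7 or more of the 11 cells were above them all, against 0.141% of all genes, and for *Cenpk*, *Ska3* and *Zwilch* none was.

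**Figure D3:**
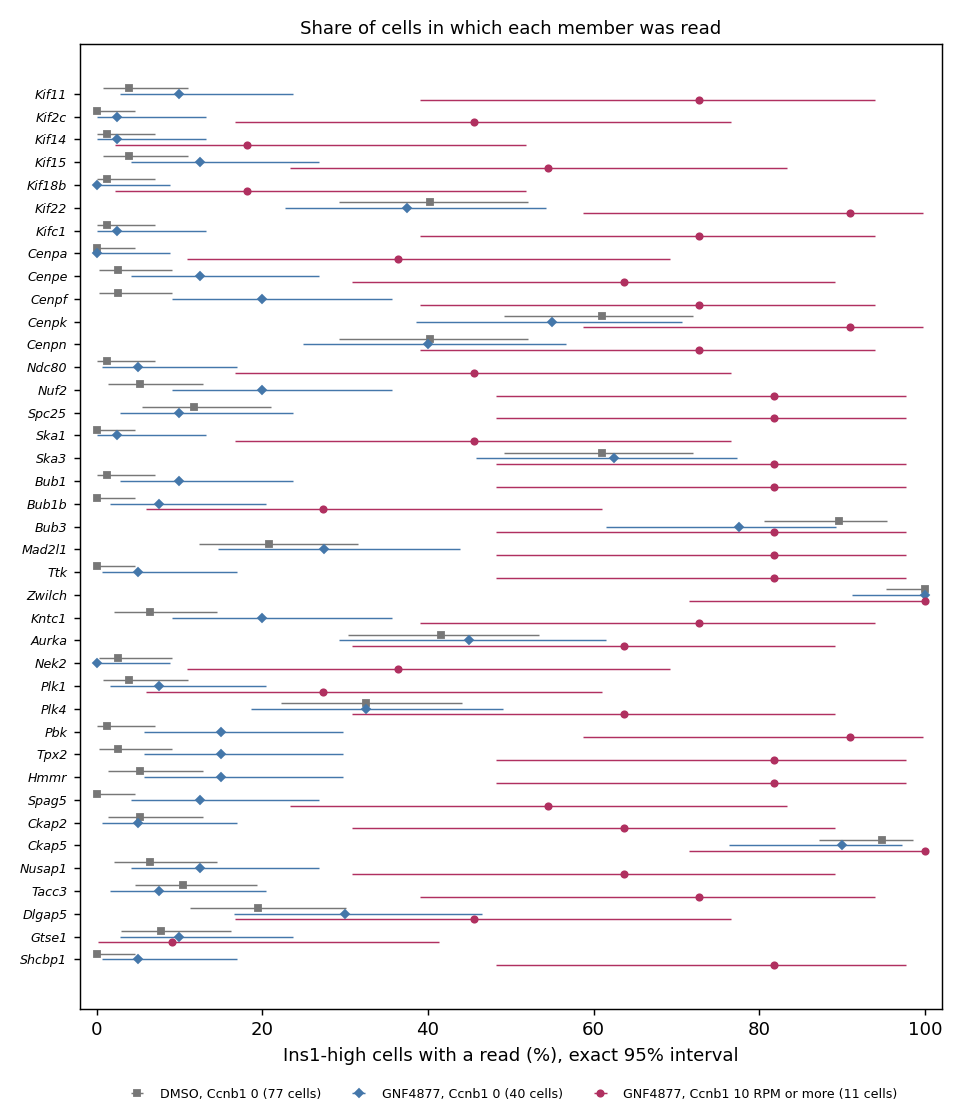
Share of Ins1-high cells with a read of each member (horizontal axis, percent, with exact 95% intervals as lines) in DMSO (77) and GNF4877 (40) cells without *Ccnb1* and in the 11 GNF4877 cells with 10 RPM or more. Intervals of the 11 and the 40 cells do not overlap for 22 members, while *Zwilch*, *Ckap5* and *Bub3* are read in most cells of every group.

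Among the 7 motors, *Kif22*, a chromokinesin that moves chromosome arms along spindle microtubules, was read most widely. It ranged from 0 to 841 RPM in the 11 cells (median 223 RPM) and from 0 to 46.9 RPM in the 40 cells without *Ccnb1* (median 0), a log2 ratio of 5.91. The groups overlapped, since cells 78, 63, 19 and 96 lay within the lower range and the other 7 cells above it. *Kif22* was also read in 40.3% of DMSO cells without *Ccnb1*, so a read of it alone did not mark cells with *Ccnb1*. *Kif11*, the plus-end motor that pushes the spindle poles apart, was read in 8 of the 11 cells (72.7%) and in 4 of the 40 (2.79% to 23.7%). Its level was uneven, with 139 to 588 RPM in cells 16, 30, 36 and 40 and 9.06 RPM or less in the others. *Kif15*, which can share that task, peaked in cell 63 (307 RPM), where *Kif11* had no read, and both were read together in 4 of the 11 cells, in cell 95 and in 0 of the 117 cells without *Ccnb1*.

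*Kifc1*, a minus-end motor that focuses spindle poles, was read in 8 of the 11 cells, from 0.845 to 599 RPM where read, and in 1 of the 40. That 1 cell, cell 12, held 71.7 RPM, above 4 of the 8. *Kif2c*, which shortens microtubules at centromeres, was read in 5 of the 11 cells and above 10 RPM in cells 16, 30, 36 and 40 (45.2 to 421 RPM). In the 40 cells it had 3 reads, all in 1 cell. The remaining motors were rare. *Kif14*, a motor of cytokinesis, was read in cells 25 (47.9 RPM) and 36 (1.79 RPM), and *Kif18b*, which acts at the plus ends of astral microtubules, in cells 16 (5.53 RPM) and 40 (8.21 RPM). After thinning *Kif18b* was read in none of the 11 cells.

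The centromere and kinetochore genes ranged from members without a read in cells lacking *Ccnb1* to members read in many of them. *Cenpa*, the histone H3 variant that marks centromeres, stood at the first end. It had no read in any of the 117 Ins1-high cells without *Ccnb1* or in the 8 cells under 10 RPM, and it held 58.02, 13.4, 29.3 and 28.4 RPM in cells 16, 17, 30 and 40, with 235 reads. Against 3 reads over the 40 cells, its mean was higher by a log2 ratio of at least 7.67, without the pseudocount. The 0 of 40 cells allow a share of up to 8.81% and the 4 of 11 span 10.9% to 69.2%. *Cenpe*, a kinesin that carries chromosomes towards the equator, was read in 7 of the 11 cells, from 12.5 to 294 RPM, and in 5 of the 40, of which 1 reached 10 RPM (47.7 RPM in cell 44). *Cenpf*, a large protein of the outer kinetochore, reached 1443 and 1319 RPM in cells 40 and 16 against a highest value of 73.8 RPM in the 40 cells, with a log2 ratio of 6.43.

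The Ndc80 complex is the main microtubule anchor of the kinetochore, and 3 of its subunits were measured. *Nuf2* was read in 9 of the 11 cells, with a median of 74.2 and a highest value of 581 RPM, and *Spc25* in 9, with a median of 11.8 and a highest value of 213 RPM. *Ndc80* itself was read in 5, up to 96.6 RPM. All 3 were read in cells 17, 30, 36 and 40, in cell 95, in 1 of 77 DMSO cells and in 0 of 40 GNF4877 cells without *Ccnb1*. *Nuf2* was not restricted to cells with *Ccnb1*, since 4 of the 40 cells held 10 RPM or more of it and cell 22 held 335 RPM. The Ska complex stabilises this attachment. Its subunit *Ska3* was read in 47 of 77 DMSO and 25 of 40 GNF4877 cells without *Ccnb1*, at medians of 1.09 and 1.07 RPM, whereas *Ska1* was read in 0 of 77 and 1 of 40. Both were read in cells 16, 30, 36 and 40, where *Ska1* held 0.921, 70.1, 139.9 and 36.6 RPM.

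*Cenpk* and *Cenpn* belong to the constitutive centromere network that stays on chromatin through the cell cycle, and both were common outside the 11 cells. *Cenpk* was read in 47 of 77 DMSO and 22 of 40 GNF4877 cells without *Ccnb1*. Its highest value, 411 RPM, was in cell 11, a GNF4877 cell without *Ccnb1*, against 226 RPM at most in the 11 cells. With means of 49.7 and 24.7 RPM it was the 1 member short of 2-fold once the pseudocount was added. *Cenpn* was read in 31 of 77 and 16 of 40 of the cells without *Ccnb1* and in 8 of the 11, with a log2 ratio of 2.85.

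Of the 7 checkpoint genes, *Bub1*, a kinase that recruits the checkpoint to kinetochores, had the most of the 11 cells above every cell without *Ccnb1*. It was read in 9 of the 11 cells (81.8%, 48.2% to 97.7%), with a median of 100.2 and a highest value of 415 RPM, and 7 of them exceeded all 117 cells without *Ccnb1*. In the 40 cells it was read in 4 (10.0%), at 9.18 RPM or less, and the log2 ratio was 6.61. *Ttk*, the kinase that starts checkpoint signalling, was also read in 9 of the 11 cells, but its median was 9.47 RPM and cells 17 and 16 (495 and 278 RPM) held most of it. It had no read in the 77 DMSO cells without *Ccnb1*. After thinning it was read in 45.5% of the 11 cells in place of 81.8%. *Bub1b*, the BubR1 component of the inhibitor of anaphase, was read in 3 of the 11 cells, 17 (534 RPM), 16 (287 RPM) and 40 (75.8 RPM), and in 3 of the 40 (up to 77.7 RPM), with a log2 ratio of 4.79.

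*Mad2l1*, which encodes the MAD2 protein bound by that inhibitor, was read in 9 of the 11 cells, in every case at 48.8 RPM or more, and in 27.5% of the 40. *Bub3*, the partner of *Bub1* and *Bub1b*, behaved differently, with a read in 89.6% of DMSO and 77.5% of GNF4877 cells without *Ccnb1* and in 81.8% of the 11, at medians of 76.1, 6.88 and 118 RPM. The 5 genes *Bub1*, *Bub1b*, *Bub3*, *Mad2l1* and *Ttk* were read together in cells 16, 17 and 40 and in none of the 117 cells without *Ccnb1*. *Zwilch* and *Kntc1* encode parts of the complex that brings checkpoint proteins and dynein to kinetochores. *Zwilch* was read in 100% of cells in all these groups, with medians of 72.8, 45.2 and 72.6 RPM. *Kntc1* was read in 5 of 77, 8 of 40 and 8 of 11 cells, and its highest values were in cells 96 and 63 (617 and 373 RPM), which lacked *Bub1*.

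With the pseudocount, the member with the highest ratio was a kinase. *Pbk*, a mitotic kinase, ranged from 0 to 1118 RPM in the 11 cells (median 254 RPM), while the 40 cells held 3.45 RPM at most (median 0). Cell 78 alone had no read of it, and the other 10 cells were above all 40. The log2 ratio was 8.49, by this measure rank 2 of all 15727 genes. In DMSO cells without *Ccnb1*, cell 21 held all of the *Pbk* RNA (92.1 RPM). *Plk4*, which licenses centriole duplication, and *Aurka*, which acts at spindle poles, were read in many cells without *Ccnb1*, at 32.5% for *Plk4* in both treatments and in 32 of 77 DMSO and 18 of 40 GNF4877 cells for *Aurka*. Their shares in the 11 cells, 63.6% for each, had intervals that overlapped these. *Aurka* was nevertheless uneven, with 934 RPM in cell 40, 219 RPM in cell 16 and 169 RPM in cell 30 and 27.5 RPM or less in the other 8. *Plk1*, which acts at centrosomes, kinetochores and the midbody, was confined to the same 3 of the 11 cells, at 139, 636 and 138 RPM. *Nek2*, which separates centrosomes, had no read in the 40 cells and held 18.7 to 158.5 RPM in cells 19, 30, 36 and 40, a log2 ratio of at least 9.29 without the pseudocount.

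Spindle assembly genes had the highest median ratio of the roles with the pseudocount, while without it and with bounds the kinases did (8.81 against 6.49). *Tpx2*, which nucleates microtubules near chromosomes and activates Aurora A, was read in 9 of the 11 cells at 22.5 to 1117 RPM, and in 6 of the 40 at 85.9 RPM or less, with a log2 ratio of 6.39. *Tpx2* and *Aurka* were read together in cells 16, 19, 30, 31, 36 and 40, in 1 of the 40 and in 0 of the 77 DMSO cells. *Tacc3*, which crosslinks spindle microtubules with *Ckap5*, was read in 8 of the 11 cells at 55.3 to 956 RPM, all above the highest of the 40 cells (31.8 RPM), with a log2 ratio of 7.04. *Ckap5*, the microtubule polymerase itself, was read in 73 of 77 DMSO and 36 of 40 GNF4877 cells without *Ccnb1* and in all 11. *Nusap1*, which bundles microtubules around chromosomes, was read in 7 of the 11 cells, of which 6 held 227 to 846 RPM, against 6.21 RPM or less in the 40 (log2 ratio 7.59).

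*Hmmr*, a microtubule-binding protein of spindle poles, was read in 9 of the 11 cells at 27.2 RPM or more and reached 1206 RPM in cell 40. *Shcbp1*, listed with this role and known from the midbody, was read in 9, of which 8 held 63.2 to 434 RPM, and had 2 reads in the 40 cells and none in DMSO. *Ckap2*, which stabilises spindle microtubules, was read in 7 of the 11 cells, at 49.4 to 361 RPM in cells 16, 17, 30, 36 and 40 and with 1 read in each of the other 2. *Spag5*, an organiser of spindle poles, was read in 6 of the 11 cells (median of the group 0.683 RPM). Its highest values in other Ins1-high cells were 296 RPM in cell 37 and 293 RPM in cell 90. *Dlgap5*, which stabilises kinetochore fibres, and *Gtse1*, which inhibits microtubule depolymerisation, followed *Ccnb1* least by the correlations given below. *Dlgap5* was read in 5 of the 11 cells and in 12 of the 40, up to 331 RPM. *Gtse1* was read in 1 of the 11 (600.0 RPM in cell 40) and in 4 of the 40 (512 RPM in cell 60).

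Over the 59 Ins1-high GNF4877 cells, Pearson correlations of log2(RPM + 1) with *Ccnb1* ordered the members in a like way, as a description of cells that share a chip and differ in depth. *Pbk* had the highest (0.85), then *Kifc1* (0.79), *Bub1* and *Tpx2* (0.78 each), *Hmmr* (0.76) and *Shcbp1* (0.75). The lowest were those of *Gtse1* (0.15), *Dlgap5* (0.26) and *Bub3* (0.27). Members that were read in most cells and members that were read in few cells thus both lay at the low end.

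The 8 cells with some *Ccnb1* but less than 10 RPM were compared with the 40 cells without it, to see whether a few *Ccnb1* reads went with the members. On average they did, but 1 cell carried the difference. Of 38 members with a read in either group, 25 were 2-fold or more higher, against 13.4% of 15507 genes, and 5 were lower, against 23.4%. The lower ones were *Plk4*, *Dlgap5*, *Ttk*, *Kifc1* and *Cenpk*. The median log2 ratio was 1.81 (2.35 without the pseudocount and with bounds), and that of all genes -0.12. Without cell 95, 7 of 37 members were higher, against 12.5% of all genes, and the median was -0.08 (all genes -0.17). In 33 of the 35 members read in the 8 cells, 1 cell held 50% or more of the RPM, which was not counted over all genes.

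Cell 95 held 12 *Ccnb1* reads, fewer than any of the 11 cells, but its 30 members and 5816 RPM of them lay inside the range of those cells. Its *Kif22* (793 RPM), *Pbk* (586 RPM), *Hmmr* (515 RPM), *Mad2l1* (431.5 RPM) and *Nusap1* (316 RPM) were above all 117 cells without *Ccnb1*, and its *Ndc80* (179.8 RPM) and *Kif18b* (99.9 RPM) were above all 11 cells. It had no read of *Cenpa*, *Cenpe*, *Ttk*, *Plk1*, *Plk4*, *Nek2*, *Dlgap5*, *Shcbp1* or *Kif14*. The other 7 cells held 1 or 2 *Ccnb1* reads each and 6 to 16 members. Among them cell 37, with 16 members and 1024 RPM, was the only one above 15. Its *Spag5* (296 RPM) and *Shcbp1* (41.94 RPM) were above all 117 cells without *Ccnb1*, but its *Nuf2* (152 RPM) and *Nek2* (20.97 RPM) were not. Cell 37 also held 15778 RPM of *Sst*, the somatostatin gene of δ-cells, and the part of this in its members was not tested. It was singled out after its values were seen.

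Cells without *Ccnb1* were then compared between treatments, to ask whether the members differed outside the cells with *Ccnb1*. The medians of members read lay close together, and the shares of single members did not separate the treatments at full depth. Without the highest GNF4877 cell of each member, the count 2-fold or more higher in mean RPM fell from 13 of 38 to 3 of 36. Among all genes this share fell from 7.47% to 2.47%. All DMSO cells were kept in this step, so a ratio could only fall. More GNF4877 than DMSO cells read 10 or more members at full depth, 14 of 40 (20.6% to 51.7%) and 8 of 77 (4.59% to 19.4%). At 100000 reads per cell these were 1 of 39 (0.0649% to 13.5%) and 2 of 75 (0.325% to 9.3%). Of 38 members with a read in either group, 13 were 2-fold or more higher in GNF4877, against 7.47% of 17552 genes, and 1 was lower, against 17.0%. The median log2 ratio was 0.30 (1.07 over 34 members without the pseudocount and with bounds, leaving out members with 3 reads or fewer in both groups), and that of all genes -0.11. When the highest GNF4877 cell of each member was left out, 3 of 36 members were higher, against 2.47% of all genes treated alike. The median was then -0.03 for the members and -0.44 for all genes. In these GNF4877 cells 24 of 36 members read, and in the DMSO cells 20 of 32, had 50% or more of their RPM in 1 cell. All genes were not counted in this way.

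With the pseudocount, the highest ratios with more than 3 reads in each group were those of *Nuf2* (2.98, means of 17.8 and 1.38 RPM), *Cenpk* (2.53, 24.7 and 3.45 RPM) and *Dlgap5* (2.19, 21.7 and 3.98 RPM). Without it *Tpx2* (3.88) was above *Nuf2* (3.69) and *Cenpk* (2.84). *Cenpk* reached 10 RPM in 9 of 40 GNF4877 and 6 of 77 DMSO cells and *Nuf2* in 4 and 1. *Spag5* and *Ttk* had no read in DMSO cells without *Ccnb1*. Their GNF4877 means were higher by log2 ratios of at least 7.87 and 6.20 without the pseudocount, but 97.9% and 99.4% of the RPM lay in 1 cell each, cells 90 and 26. The lower member was *Kif11* (-1.39), since DMSO cell 78 held 198 RPM and 99.0% of the group's sum.

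For 0 of the 38 members did the intervals of the shares separate with GNF4877 higher, against 0.239% of all genes, and for 0 with GNF4877 lower, against 14.5%. At 100000 reads per cell 0 of 32 members were higher (0.209% of all genes) and 2, *Bub3* and *Ckap5*, were lower (12.3%). *Bub3* was then read in 60 of 75 DMSO and 20 of 39 GNF4877 cells and *Ckap5* in 70 of 75 and 28 of 39. All genes read at that depth also fell from a median of 6599 to 4837 per cell. The part of this in the shares of *Bub3* and *Ckap5* was not tested. The DMSO group held 25 cells in which *Gcg*, *Sst* or *Ppy* reached 1000 RPM, and the GNF4877 group 1.

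With all 59 Ins1-high GNF4877 cells set against all 78 DMSO cells, most members were higher in GNF4877. For some members 1 DMSO cell held much of the DMSO RPM. Of 39 members 33 were 2-fold or more higher, against 8.00% of 17855 genes, and 0 were lower, against 14.5%. The median log2 ratio was 2.60 (3.47 without the pseudocount and with bounds), and that of all genes -0.08. As a difference of mean log2(RPM + 1), which gives single high cells less weight, 11 members were 2-fold or more higher, against 1.35% of all genes. The median was then 0.71 for the members and -0.24 for all genes. With the pseudocount *Pbk* had the highest ratio (5.15), followed by *Kifc1* (4.78) and *Hmmr* (4.70). The 6 members short of 2-fold were *Kif14* (-0.13), *Ckap5* (0.09), *Zwilch* (0.18), *Bub3* (0.24), *Kif18b* (0.37) and *Ska3* (0.98). *Bub1b*, *Spag5* and *Shcbp1* had no read in any Ins1-high DMSO cell, and their GNF4877 means were higher by log2 ratios of at least 9.08, 9.58 and 9.53 without the pseudocount.

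Cell 46, the DMSO cell with *Ccnb1* (49.4 RPM), read 35 of the 39 members at 3156 RPM in all. It lacked *Bub1b*, *Nek2*, *Spag5* and *Shcbp1*. It held 50% or more of the DMSO RPM of 15 members, among them *Ttk* and *Kif2c* (100% each), *Kif14* (99.4%), *Cenpe* (98.9%), *Bub1* (96.6%) and *Tpx2* (91%). This was not counted over all genes, of which the cell read 10713, the most of any Ins1-high DMSO cell. Without it 35 members were higher, against 8.24% of all genes, and the median was 2.83, and single ratios moved more, *Cenpe* from 2.93 to 4.43 and *Kif14* from -0.13 to 0.88. Its *Ins1* was 11547 RPM, but it also read all 8 mesenchymal markers at 17454 RPM in sum, led by *Col1a1* (3470.2 RPM), against a median of 0.682 RPM in the other DMSO cells, and no acinar or endothelial marker. DMSO cell 21 held 14 members and 1062 RPM of them, with 184144 RPM of *Gcg*. Without cell 21 the count was 34, against 8.07% of all genes, and the median 2.86. Both cells were singled out after their values were seen.

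Ins1-low cells with 10 RPM or more of *Ccnb1* numbered 3, all from GNF4877, and each read more members than at least 9 of the 11 Ins1-high cells. Cell 15 read 38 of 39 (9096 RPM), cell 20 read 34 (3456 RPM) and cell 49 read 33 (8304 RPM). The 0 of 8 Ins1-low DMSO cells stand beside 3 of 25 in GNF4877. Ins1-low cells with less than 10 RPM read 3 to 10 members in DMSO (median 5, 8 cells) and 3 to 13 in GNF4877 (median 7, 22 cells). Each of the 3 cells held all 3 measured Ndc80 complex genes, both Ska genes, *Aurka* with *Tpx2* and *Cenpe* with *Cenpf*.

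The 3 cells differed in hormones and in single members. Cell 20 held 357885 RPM of *Gcg*, the glucagon gene of α-cells, and cell 49 held 35288 RPM of *Sst*, and neither read any mesenchymal marker. Cell 15 read all 8 mesenchymal markers (20134 RPM, led by *Sparc* at 7005 RPM) and little of any hormone, as its *Ins1* was 33.6 and its *Gcg* 50.99 RPM. Among members, *Pbk* had no read in cell 15 and held 75.8 and 253 RPM in cells 20 and 49. *Ttk* was above all 117 Ins1-high cells without *Ccnb1* in all 3, at 230.0, 162 and 714 RPM in cells 15, 20 and 49, and *Bub3* in cells 15 and 49 only, at 538, 123 and 766 RPM. *Cenpa* held 14.1, 29.7 and 17.8 RPM. *Plk1* held 523.5 RPM in cell 15, none in cell 20 and 41.2 RPM in cell 49, and *Bub1b* held 181 and 74.2 RPM in cells 15 and 20 and none in cell 49.

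Other genes of the spindle and kinetochore, from a list of 84 symbols of which 68 were found, were higher with *Ccnb1* less uniformly than the members. Both lists were chosen with earlier results of these data known, so this contrast can follow from the choice. Between the 11 and the 40 GNF4877 cells, 35 of 66 with a read were 2-fold or more higher (all genes 15.1%) and 8 lower (20.9%), with a median log2 ratio of 1.36 (1.41 with bounds). With the pseudocount the 5 highest were *Cenpt*, a centromere protein (7.46), *Troap*, a tubulin-associated protein of the spindle (102.8 RPM on average in the 11 cells and 1 read in the 40), *Ccnf*, cyclin F (no read in the 40, and at least 10.03 without the pseudocount), *Kif4a*, a chromokinesin (5.77), and *Cenpi*, a centromere protein (5.75). The 5 lowest included *Tubgcp5* (-4.95), *Tubgcp6* (-4.15) and *Haus8* (-2.56), genes of the γ-tubulin and augmin complexes that nucleate microtubules, of which other genes, named after their values were seen, were higher (*Haus4* 5.43, *Haus3* 3.73 and *Tubgcp3* 2.64). The other 2 were *Cep152*, a centriole gene with no read in the 11 cells (-3.31 or lower without the pseudocount), and *Sgol1*, a protector of centromeric cohesion with 2 reads in the 11 cells and 86 in the 40, all in 1 cell.

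In the other comparisons the list lay nearer to 0. Over all Ins1-high cells 30 of 67 were higher in GNF4877 (all genes 8.00%) and 4 lower (14.5%; median 0.59, 0.96 with bounds). Without *Ccnb1* 19 of 65 were higher (7.47%) and 8 lower (17.0%; median 0.09, 0.19 with bounds). In the 8 cells under 10 RPM 20 of 65 were higher (13.4%) and 17 lower (23.4%; median -0.03, 0.02 with bounds), so the lower count lay near that of all genes.

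Promoters of the members, many of them higher in the cells with *Ccnb1*, were searched for letters known from cell cycle genes, the cell cycle homology region (TTTGAA, or TTCGAA) and the CCAAT box (CCAAT), on both strands, where TTTGAA reads TTCAAA and CCAAT reads ATTGG on the other strand. RefSeq windows on the rat assembly GRCr8, from 250 bases before to 50 after the start of a gene, were available for 36 of the 40 listed genes, *Spc24* among them, with 37 windows, since *Kif2c* has 2. *Kif14*, *Pbk*, *Tpx2* and *Zwilch* had no entry. TTTGAA was found in 56.8% of the 37 windows, in 26.5% of 68 windows of the other spindle and kinetochore genes and in 18.3% of all 33469 windows. TTCGAA was found in 10.8%, 13.2% and 1.69%, and CCAAT in 62.2%, 48.5% and 37.5%. A CCAAT and either form of the homology region stood in the same window in 45.9%, 22.1% and 7.95%. The windows of both gene lists held 57.9% and 57.8% G and C, and all windows 52.7%. For 7 members both kinds of letters lay within 100 bases before the start, which was not counted over all windows. These stretches are shown from 5′ to 3′ on the strand of the gene, with capitals marking the matches on either strand. They include *Bub3*, *Ckap5* and *Kif22*, read in many cells without *Ccnb1*, and *Kifc1*, *Hmmr*, *Spag5* and *Tacc3*, read in few. Members such as *Plk1*, *Ttk*, *Nusap1* and *Cenpf*, with CCAAT before and TTTGAA just after the start, are left out by this limit. The matches describe letters in these windows only. The coordinates are chr1:195760432-195760531 on the plus strand for *Bub3*, chr3:97946948-97947047 on the plus strand for *Ckap5*, chr1:191080879-191080978 on the minus strand for *Kif22*, chr20:5000829-5000928 on the plus strand for *Kifc1*, chr10:25665216-25665315 on the minus strand for *Hmmr*, chr10:63696736-63696835 on the plus strand for *Spag5* and chr14:81289699-81289798 on the minus strand for *Tacc3*.
Bub3: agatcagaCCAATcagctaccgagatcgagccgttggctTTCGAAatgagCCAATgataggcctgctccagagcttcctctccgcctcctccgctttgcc
Ckap5: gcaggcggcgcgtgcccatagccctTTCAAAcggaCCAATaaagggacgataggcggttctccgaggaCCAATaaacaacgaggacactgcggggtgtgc
Kif22: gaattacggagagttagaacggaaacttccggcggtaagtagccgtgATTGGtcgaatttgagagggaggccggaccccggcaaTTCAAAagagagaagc
Kifc1: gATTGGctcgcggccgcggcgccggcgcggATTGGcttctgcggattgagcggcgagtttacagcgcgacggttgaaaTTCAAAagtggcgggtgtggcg
Hmmr: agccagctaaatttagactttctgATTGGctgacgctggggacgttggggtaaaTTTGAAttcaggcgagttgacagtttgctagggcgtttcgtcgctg
Spag5: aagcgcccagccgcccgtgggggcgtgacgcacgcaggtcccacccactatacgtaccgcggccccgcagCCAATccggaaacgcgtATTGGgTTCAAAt
Tacc3: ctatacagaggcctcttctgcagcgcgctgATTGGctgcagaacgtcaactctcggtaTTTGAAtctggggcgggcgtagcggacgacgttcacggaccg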

How the data were processed

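The authors converted base calls with CASAVA 1.8.2, aligned reads with BWA 0.5.9 and handled them with SAMtools 0.1.19, and deposited RPM for 27586 transcripts in 170 cells. Rat RefSeq transcripts are listed, although the methods give the mouse transcriptome as reference. Values at 0.01, the floor (69.7%), were set to 0, reads were taken from the step between values, and the rows of a symbol were summed, so that near-identical genes cannot be separated. The authors looked for a single cell in each port by microscopy, no doublets were removed here, and 8 cells had under 80% of their mapped reads on listed transcripts. The members and lists were chosen with earlier results of these data known.

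No test was run between groups and no p-value is given. Shares have exact Clopper-Pearson 95% intervals. Ratios used a pseudocount of 1 RPM over genes with a read in either group. A group without a read was set against 3 reads over that group, no such ratio was formed where both groups had 3 reads or fewer, and bounds use mean RPM without a pseudocount. Thinning to 100000 reads left out 6 cells (among the Ins1-high, 2 of DMSO and 1 of GNF4877). Every member was named, with the 5 highest and 5 lowest other spindle and kinetochore genes. Markers of immune, mesenchymal, endothelial, acinar, ductal, PP, δ-, α- and β-cells were summed per cell. The pseudocount, scale, depth, thresholds for *Ins1* and *Ccnb1*, rows of a gene and single cells were varied. The ratio, step and thinning code was tested on simulated data. Scripts ran in Python 3.11.15 with matplotlib 3.10.9, scipy 1.17.1, pandas 2.3.3 and numpy 2.4.6.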

Additional observations from a re-analysis of the deposited data

How the results depend on the processing

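The limit of a move was 0.58 on the log2 scale, 1.5 times for counts, or the interval of a share. Of 148 recalculated medians and counts over the members, 114 stayed within it, 31 moved beyond it, and 3 moved beyond it and changed sign. Within the limit, the median of 0.30 for cells without *Ccnb1* changed sign to -0.03 with the highest cells left out. With GNF4877 cells of 10 RPM or more of *Ccnb1* over those without it, the median log2 ratio of 4.67 became 5.71 with a pseudocount of 0.1 RPM, 2.87 with 10 RPM, 2.86 as a difference of mean log2(RPM + 1), 3.94 without cell 17 and 3.65 with the highest cell of each member left out, while the count of members higher stayed between 33 and 39. For all Ins1-high cells over DMSO the median of 2.60 became 3.38, 1.27 and 0.71 under the first 3 of these, and the count of 33 became 11 under the difference of logs. A larger pseudocount or a mean of logs gives less weight to a few high cells by construction. Highest cells were left out of the numerator only, so by construction that step can only lower a ratio. For cells without *Ccnb1* the count of 13 became 3 (10 RPM), 0 (difference of logs) and 3 (highest cells left out). For cells under 10 RPM the median of 1.81 became 0.73 (10 RPM), 0.74 (difference of logs) and 2.58 (*Ins1* of 10000 RPM), and it changed sign to -0.08 with *Ccnb1* counted from 3 reads, which moves cell 95 to the other group, to -0.08 without cell 95 and to -0.35 with the highest cells left out. The count of 25 became 16, 11, 7, 7 and 3 under these settings other than the *Ins1* threshold. Members read per cell fell from a median of 7 to 4 in DMSO cells without *Ccnb1*, from 8 to 3.5 in GNF4877 cells without it and from 10 to 3.5 under 10 RPM when 10 RPM was required of a member, and to 4, 4 and 4.5 after thinning. The median share over members fell from 3.90% to 1.30%, from 12.5% to 2.50% and from 25% to 12.5% at 10 RPM, and to 2.56% and 12.5% in the GNF4877 groups after thinning. Of 39 single shares, at 10 RPM and after thinning, 35 and 36 stayed within their intervals in the 11 cells, 33 and 35 in the 8 under 10 RPM, 13 and 18 in GNF4877 cells without *Ccnb1* and 21 and 24 in DMSO. Fewer cells give wider intervals, so these counts do not compare the groups. Where no construction is named, the cause was not tested. The omission of the highest cells, counting *Ccnb1* from 3 reads, counting cells with 10 or more members and leaving out cells with under 80% listed reads were chosen after seeing the data. No paired analysis was possible because no animal or culture links the cells of the treatments. Few members are read at all in most cells without *Ccnb1*, and the part of this in the moves of the shares was not tested.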
